A study of Mus musculus with 6 samples.

Results

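The liver enzymes that start or carry out the breakdown of tyrosine, tryptophan, histidine, serine, glyoxylate and proline were followed by their mRNA levels across 3 groups of mouse livers. The 9 genes named for this are Tat, Tdo2, Hpd, Hgd, Fah, Sds, Agxt, Hal and Prodh, and a gene was taken as measured where a probe set of the array names it and no other gene. By that rule 8 of the 9 genes were measured, by 11 probe sets, out of 18193 genes and 34945 such probe sets in all. Sds, which encodes serine dehydratase, is not analysed here. Tdo2 had 3 probe sets and Hgd had 2, and the brightest over the 6 arrays gave the gene's main value.

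The arrays are Affymetrix expression arrays of liver from male C57BL/6J mice, each 8 weeks old and kept on normal chow. Of the 3 groups, 1 carried the genotype labelled Cnot3+/- and had been without food for 24 h, 1 was wild-type and had been without food for 24 h, and 1 was wild-type and fed. Each group holds 2 arrays, which the labels call biological replicates, and the fasted mice were housed singly. Cnot3 belongs to the CCR4-NOT deadenylase, the complex that trims poly(A) tails ahead of mRNA decay. Which part of Cnot3 is lost, in which cells, and whether an array holds 1 liver are not given in the labels. There is no fed Cnot3+/- group among the arrays, and the genotypes can be compared after the fast alone.

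Hepatocytes are the main site where amino acids are stripped of nitrogen, and the carbon that is left can be burned, turned into ketone bodies or turned into glucose. During a fast, glucocorticoids and glucagon signalling through cAMP raise transcription of several of these enzymes, and Tat is a classic example of a glucocorticoid-induced liver gene. Tyrosine is broken down by Tat, Hpd, Hgd and Fah in that order, while Tdo2, Hal and Prodh stand at the entry to the breakdown of tryptophan, histidine and proline. Agxt moves an amino group to glyoxylate, which removes glyoxylate as glycine.

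The arrays had the marks of liver. The 6 measured hepatocyte markers of a list of 8, Alb and Apoa1 among them, were all above the array medians and averaged between 14.57 and 14.82 per array in log2 RMA units, the unit of every level given here. The array medians themselves lay between 5.59 and 5.64. Of 5 kidney markers 1 was above the array medians, and the list averaged 4.66 to 4.77 per array. Cnot3 itself read 9.40 and 9.16 on the arrays labelled Cnot3+/-, 9.27 and 9.32 on those of fasted wild-type liver and 9.45 and 9.60 on the fed arrays by its brighter probe set, so the genotype is used as labelled and is not checked by these values. The fed arrays stood apart from each other in some genes that respond to glucocorticoids and cAMP, and 9 of the 11 measured read higher on the first. Igfbp1, an insulin-repressed gene, read 12.26 on the first and 8.33 on the second, and Pck1, which encodes a key enzyme of glucose synthesis, read 13.93 and 11.74. Pdk4, which encodes a kinase that restrains pyruvate oxidation, went the other way, at 6.51 and 8.08, as did Fkbp5, at 10.47 and 10.78. In these whole-liver samples, fewer cells of a type and less RNA per cell cannot be told apart.

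Promoters are shown for 4 of the genes, since their values differ in kind. By the brightest probe set of each gene, Hal had the largest difference from the fed arrays, Tdo2 and Tat lay above the fed arrays in both fasted groups, and Prodh lay below them in fasted wild-type liver. Hpd also lay above the fed arrays in both fasted groups and Fah below them, and their promoters are not shown. Each sequence runs from 250 bases before the RefSeq start of the gene to 50 bases after it on GRCm38.p6, written 5′ to 3′ on the gene's own strand. Capitals mark every match, on either strand, to the letters named next. The TATA box letters are TATAAA, the CCAAT box letters CCAAT and the C/EBP-like letters TTGCNNAA. TGTTCT is a glucocorticoid response half-site and TGACG a cAMP response half-site, and the full elements were not searched. The Hal promoter is chr10:93488518-93488817 on the plus strand, the Tdo2 promoter chr3:81975679-81975978 on the minus strand, the Tat promoter chr8:109990186-109990485 on the plus strand and the Prodh promoter chr16:18089141-18089440 on the minus strand.
Hal: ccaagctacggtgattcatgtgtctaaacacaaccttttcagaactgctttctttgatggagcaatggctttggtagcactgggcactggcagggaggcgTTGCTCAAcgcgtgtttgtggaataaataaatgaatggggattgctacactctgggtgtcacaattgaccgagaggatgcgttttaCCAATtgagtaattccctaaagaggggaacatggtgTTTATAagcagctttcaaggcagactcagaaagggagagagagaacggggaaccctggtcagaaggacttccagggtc
Tdo2: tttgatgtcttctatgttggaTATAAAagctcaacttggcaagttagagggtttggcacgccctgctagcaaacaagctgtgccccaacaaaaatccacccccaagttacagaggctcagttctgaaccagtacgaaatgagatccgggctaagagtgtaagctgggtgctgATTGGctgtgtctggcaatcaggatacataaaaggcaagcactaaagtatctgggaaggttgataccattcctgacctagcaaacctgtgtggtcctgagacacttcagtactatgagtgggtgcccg
Tat: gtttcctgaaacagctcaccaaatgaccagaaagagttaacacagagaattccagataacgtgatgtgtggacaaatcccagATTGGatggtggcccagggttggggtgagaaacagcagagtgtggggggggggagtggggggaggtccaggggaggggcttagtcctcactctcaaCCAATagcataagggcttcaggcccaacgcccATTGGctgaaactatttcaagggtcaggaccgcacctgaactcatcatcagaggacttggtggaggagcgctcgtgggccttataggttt
Prodh: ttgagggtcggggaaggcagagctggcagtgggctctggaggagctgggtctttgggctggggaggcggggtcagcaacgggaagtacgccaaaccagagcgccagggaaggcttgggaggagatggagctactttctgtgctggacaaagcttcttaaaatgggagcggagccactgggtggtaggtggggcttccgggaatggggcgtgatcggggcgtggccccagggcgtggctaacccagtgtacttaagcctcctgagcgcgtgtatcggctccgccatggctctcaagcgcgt

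In the Hal window the letters of a TATA box begin at position -28 from the gene's start base, those of a CCAAT box at -64 and those of a C/EBP-like site at -150. The Tat window holds the CCAAT letters at 3 places, -40, -72 and -168, and the Tdo2 window holds them at 1 place, -78. The TATA letters in the Tdo2 window begin at -229. None of the 5 motifs matched in the Prodh window, nor in those of Hpd and Fah. Over all 8 measured genes, 3 promoters held the TATA letters (Hal, Hgd and Tdo2), against 13.6% of 32851 mouse promoters of the same length. The CCAAT letters were in 4 (Hal, Hgd, Tdo2 and Tat), against 37.4%, and the C/EBP-like letters in 2 (Hal and Hgd), against 10.8%. The glucocorticoid half-site letters were in 1, that of Agxt, against 19.0%, and the cAMP half-site letters were in none, against 20.8%. The CCAAT letters on the reverse strand read ATTGG in the sequences above, and the TATA letters read TTTATA. These are matches of letters in short windows and say nothing about binding elsewhere.

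The comparison of fasted with fed wild-type liver asks what a 24 h fast does to these mRNAs. None of the 8 genes passed limma's moderated test at an adjusted p under 0.05, where 5.02% of all 18193 genes did (1.87% higher and 3.15% lower in fasted liver). At an unadjusted p under 0.05 there were 3, Hal, Tdo2 and Prodh, against 18.9% of all genes. Hal was the closest to passing and read higher in fasted liver, as did Tdo2, while Prodh read lower. In 6 of the 8 genes the fasted and fed wild-type arrays did not overlap, 4 with the fasted arrays higher and 2 with them lower, where 50.8% of all genes did not overlap (27.1% higher and 23.7% lower). The median difference of the 8 genes was 0.09 on the log2 scale, beside 0.02 over all genes, with single genes between -0.55 and 0.71. The signs were mixed, with 5 of 8 positive, beside 54.7% of all genes.

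**Figure D1:**
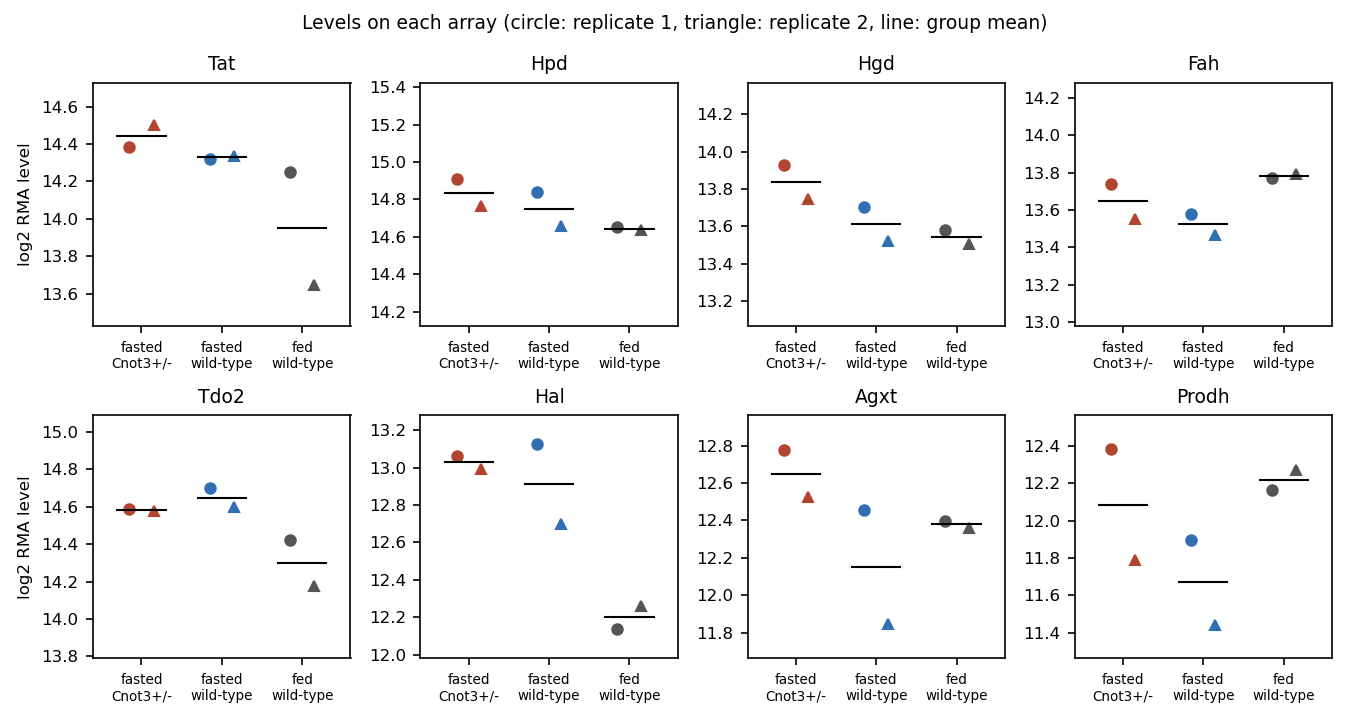
Log2 RMA level of the 8 measured enzymes on each array, with fasted Cnot3+/-, fasted wild-type and fed wild-type arrays from left to right, circles for replicate 1, triangles for replicate 2 and lines for group means. All panels span the same number of log2 units around their own centre; all 4 fasted Hal arrays lie above 12.26, the higher of the fed arrays, and the fed Tat arrays lie far apart at 14.25 and 13.65.

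Tyrosine breakdown opens with Tat, tyrosine aminotransferase. Tat read 14.38 and 14.50 on the fasted Cnot3+/- arrays, 14.32 and 14.34 on those of fasted wild-type liver and 14.25 and 13.65 on the fed arrays. All fasted arrays were above both fed arrays, but the first fed array was close to the fasted ones and the second was well below. The fasted minus fed difference in wild-type liver was 0.38 (SE 0.20, 95% interval -0.08 to 0.84, limma adjusted p = 0.358). It was 0.08 without the second fed array and 0.68 without the first, neither of which passed the test. The array with the low Tat level is the array with the low Igfbp1 and Pck1 levels given above, and the part of that array's state in the Tat difference was not tested.

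Hpd makes homogentisate from the keto acid that Tat forms. It read 14.91 and 14.77 on the fasted Cnot3+/- arrays, 14.84 and 14.66 on those of fasted wild-type liver and 14.65 and 14.64 on the fed arrays. The fed arrays were the lowest of the 6, though the second fasted wild-type array exceeded them by little. The difference in wild-type liver was 0.11 (SE 0.13, limma adjusted p = 0.737).

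Hgd opens the ring of homogentisate. Its brighter probe set, 1452986_at, read 13.93 and 13.75 on the fasted Cnot3+/- arrays, 13.70 and 13.52 on those of fasted wild-type liver and 13.58 and 13.51 on the fed arrays. The wild-type groups overlapped, with a difference of 0.07 (SE 0.13, adjusted p = 0.841). The dimmer probe set, 1458049_at, read 8.93 and 7.31 on the Cnot3+/- arrays, 7.51 and 6.87 on those of fasted wild-type liver and 7.78 and 7.51 on the fed arrays. Its wild-type difference had the opposite sign, -0.46 (adjusted p = 0.726 in the fit over probe sets), and its arrays spread far more widely within the fasted groups. The sign of the Hgd difference therefore depended on the probe set.

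Fah, the last enzyme of the pathway, releases fumarate and acetoacetate, and its loss causes a hereditary tyrosinaemia in people. It read 13.74 and 13.55 on the fasted Cnot3+/- arrays, 13.58 and 13.47 on those of fasted wild-type liver and 13.77 and 13.79 on the fed arrays. Both fasted groups lay below the fed arrays, unlike Tat and Hpd. The wild-type difference was -0.26 (SE 0.12, 95% interval -0.55 to 0.03, adjusted p = 0.326).

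Tdo2, tryptophan dioxygenase, opens the indole ring and commits tryptophan to the kynurenine pathway. Its brightest probe set, 1419093_at, read 14.59 and 14.58 on the fasted Cnot3+/- arrays, 14.70 and 14.60 on those of fasted wild-type liver and 14.42 and 14.18 on the fed arrays. Probe set 1449337_at read 13.86 and 13.65 in Cnot3+/-, 13.76 and 13.41 in fasted wild-type and 13.17 and 12.82 in fed liver. Probe set 1455770_at read 13.53 and 13.36 in Cnot3+/-, 13.56 and 13.26 in fasted wild-type and 12.72 and 12.40 in fed liver. In all 3 probe sets every fasted array was above every fed array. The wild-type difference was 0.35 for the brightest (SE 0.13, 95% interval 0.04 to 0.66, adjusted p = 0.203), and 0.23 without the second fed array, while in the fit over all probe sets it was 0.59 for 1449337_at (adjusted p = 0.168) and 0.85 for 1455770_at (SE 0.17, adjusted p = 0.0545). In that fit 2.63% of all probe sets passed. The direction was shared and the size was not, and whether the probe sets differ in size was not tested.

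**Figure D2:**
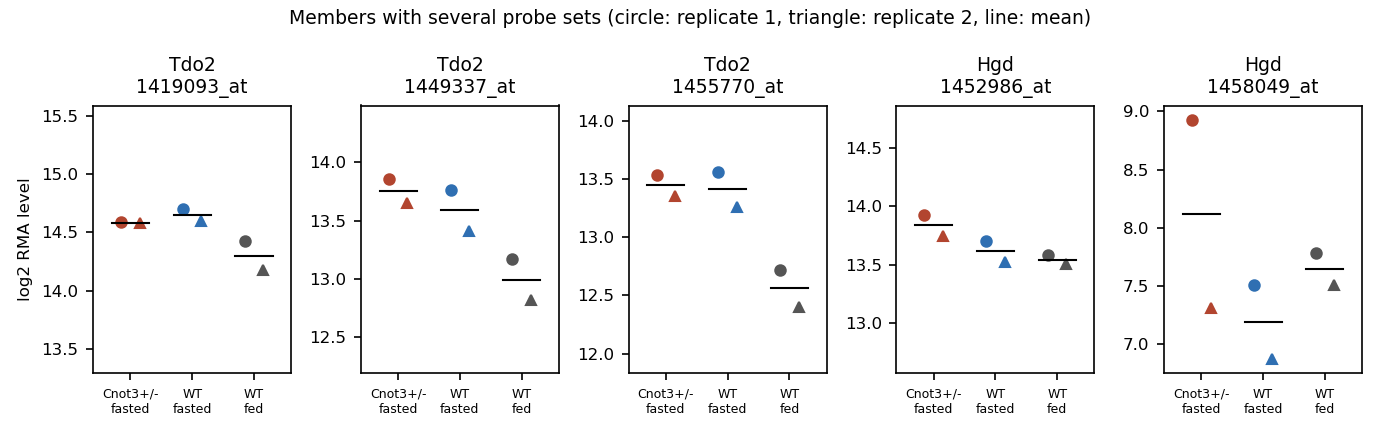
Log2 RMA level on each array for the 3 probe sets of Tdo2 and the 2 of Hgd, with fasted Cnot3+/-, fasted wild-type and fed wild-type arrays from left to right, circles for replicate 1, triangles for replicate 2 and lines for group means. The fed arrays are lowest in all 3 Tdo2 panels, with wild-type differences of 0.35, 0.59 and 0.85, while the dimmer Hgd probe set has a Cnot3+/- array at 8.93 far above the others.

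Hal, histidase, removes ammonia from histidine and leaves urocanate. It read 13.06 and 12.99 on the fasted Cnot3+/- arrays, 13.12 and 12.70 on those of fasted wild-type liver and 12.13 and 12.26 on the fed arrays. All 4 fasted arrays, of either genotype, were above both fed wild-type arrays. Fasted wild-type liver averaged 12.91 ± 0.30 and fed liver 12.20 ± 0.09 (SD, n = 2 each), a difference of 0.71 (SE 0.16) or 1.64-fold, with a 95% interval from 1.26 to 2.13-fold. Its adjusted p of 0.0534 in limma just missed the threshold, and it passed with quantile normalisation, with dim genes left out and with a variance trend.

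The other enzymes of histidine breakdown did not pass the test either. Uroc1, urocanase, acts on the product of Hal and differed by -0.48 (adjusted p = 0.266), opposite in sign to Hal. Amdhd1, which opens the imidazolone ring, differed by 0.04 (adjusted p = 0.951) and Ftcd, which hands the last fragment to folate, by 0.27 (adjusted p = 0.307).

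Agxt, alanine-glyoxylate aminotransferase, read 12.78 and 12.52 on the fasted Cnot3+/- arrays, 12.45 and 11.85 on those of fasted wild-type liver and 12.40 and 12.36 on the fed arrays. The second fasted wild-type array was the lowest of the 6 and the first lay above both fed arrays, so the wild-type groups overlapped. The wild-type difference was -0.23 (SE 0.21, adjusted p = 0.633), and it turned to 0.075 without the second fasted wild-type array.

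Prodh, proline dehydrogenase of the mitochondria, read 12.38 and 11.79 on the fasted Cnot3+/- arrays, 11.90 and 11.44 on those of fasted wild-type liver and 12.17 and 12.27 on the fed arrays. In wild-type liver both fasted arrays were below both fed arrays, with a difference of -0.55 (SE 0.23, 95% interval -1.08 to -0.01, adjusted p = 0.251). It was -0.78 without the first fasted wild-type array and -0.32 without the second. The Cnot3+/- arrays lay on either side of the fed ones.

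**Figure D3:**
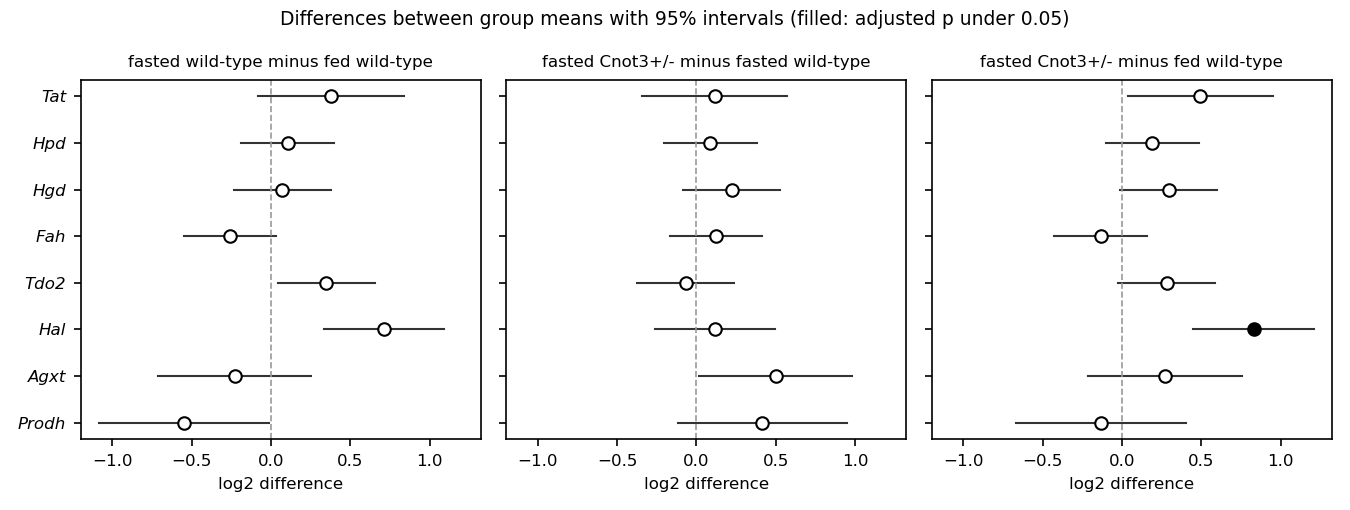
Log2 differences between group means for the 8 enzymes with 95% intervals from the limma fit, in 1 panel for each comparison, with filled points for an adjusted p under 0.05. The only filled point is Hal in fasted Cnot3+/- against fed wild-type liver, at 0.83; its value in fasted against fed wild-type liver is 0.71.

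The comparison of fasted Cnot3+/- with fasted wild-type liver asks whether the genotype alters these mRNAs in the fast. None of the 8 genes passed limma's test, and 0% of all genes did, while 1011 genes (5.56%) had an unadjusted p under 0.05, with Agxt the only 1 of the 8 among them. Agxt averaged 12.65 ± 0.18 in Cnot3+/- and 12.15 ± 0.43 in wild-type liver (SD, n = 2 each), a difference of 0.50 (SE 0.21, 95% interval 0.02 to 0.98, adjusted p = 0.863). The difference was 0.80 without the first fasted wild-type array and 0.20 without the second, so the size rested on the spread between those arrays. The groups did not overlap for Agxt, Hgd and Tat, higher in Cnot3+/-, and for Tdo2, lower in Cnot3+/-, which is 4 of 8 where 36% of all genes did not overlap. The lower Tdo2 reading rests on its brightest probe set, since 1449337_at differed by 0.17 and 1455770_at by 0.03, both with overlapping arrays.

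The intervals of the remaining 7 genotype differences all spanned 0. Prodh differed by 0.42 (95% interval -0.12 to 0.95) and Hgd by 0.22 (-0.08 to 0.53), each with an adjusted p of 0.865. Leaving out single arrays moved the Prodh difference between 0.12, without the first Cnot3+/- array, and 0.71, without the second. It moved the Hgd difference between 0.13, without the first Cnot3+/- array or the second fasted wild-type array, and 0.31, without either of the other fasted arrays. Fah differed by 0.12 (-0.17 to 0.41), Hal by 0.12 (-0.26 to 0.50), Tat by 0.11 (-0.34 to 0.57), Hpd by 0.09 (-0.21 to 0.38) and Tdo2 by -0.07 (-0.37 to 0.24). The sign was positive in 7 of 8 genes, beside 49.6% of all genes, and the median was 0.12, beside -0.0017 over all genes. The dimmer Hgd probe set differed by 0.93 (SE 0.49, adjusted p = 0.814 in the fit over probe sets), with 1 Cnot3+/- array at 8.93 and the other at 7.31. The 95% intervals are for the main probe set of each gene and are not adjusted over genes. They do not bound the true difference, and the missed threshold does not show that the genotypes were alike.

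Fasted Cnot3+/- liver was also set against fed wild-type liver, a comparison that joins the fast and the genotype and shares its fed arrays with the first. Hal rose, and was the only 1 of the 8 genes to pass, where 7.56% of all genes did (3.88% higher and 3.68% lower). It averaged 13.03 ± 0.05 in fasted Cnot3+/- and 12.20 ± 0.09 in fed wild-type liver (SD, n = 2 each), a difference of 0.83 (SE 0.16, limma adjusted p = 0.0261) or 1.78-fold, with an interval from 1.37 to 2.31-fold. The call was lost when any of the 4 arrays compared was left out, with differences between 0.77 and 0.89 and adjusted p of 0.114 and 0.0863 without the first and second fed array, and 0.0874 and 0.0808 without the first and second Cnot3+/- array. Hal passed here and missed the threshold in wild-type liver, but the difference between those fasted groups, 0.12, had an adjusted p of 0.942.

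Tat differed by 0.49 between fasted Cnot3+/- and fed liver (adjusted p = 0.201). Without the first fed array that difference was 0.80 and passed (adjusted p = 0.0444), and without the second it was 0.19. Tdo2 differed by 0.28 by its brightest probe set (adjusted p = 0.277), and probe set 1455770_at passed in the fit over all probe sets at 0.88 (adjusted p = 0.0403), where 4.41% of probe sets did. Hgd differed by 0.29, Agxt by 0.27, Hpd by 0.19, Prodh by -0.13 and Fah by -0.13, none of which passed (adjusted p between 0.252 and 0.828). The arrays of the 2 groups did not overlap in 7 of the 8 genes, all but Prodh, where 48% of all genes did not overlap, 24.6% with the Cnot3+/- arrays higher and 23.4% with them lower. Unadjusted p was under 0.05 for 2 genes, Hal and Tat, beside 21.3% of all genes, and 6 of 8 differences were positive, beside 50.5%.

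Markers of Kupffer cells, the macrophages of the liver, differed over the same arrays. For scale, 5.02% of all genes passed in fasted against fed wild-type liver, 0% between the genotypes and 7.56% in Cnot3+/- against fed liver. The 9 Kupffer markers averaged 9.29 and 8.93 on the Cnot3+/- arrays, 8.50 and 8.72 on those of fasted wild-type liver and 8.06 and 8.19 on the fed arrays, and all 9 genes were above the array medians. None passed in fasted against fed wild-type liver or between the genotypes, and 5 of 9 rose in Cnot3+/- against fed liver (Marco by 1.65, Cd163 by 1.78, C1qa by 0.84, C1qb by 1.03 and Vsig4 by 0.75). Of 7 stellate cell and fibroblast markers, 4 passed in fasted against fed wild-type liver, where Col3a1 fell by 2.32, Lrat fell by 1.20, Col1a1 fell by 0.65 and Dcn rose by 0.61. That list averaged 8.26 and 7.88 on the Cnot3+/- arrays, 8.05 and 7.94 on those of fasted wild-type liver and 8.60 and 8.47 on the fed arrays. Of 7 endothelial markers 1 passed in that comparison, Lyve1, which rose by 1.58, and the list averaged 7.92 and 8.32 on the Cnot3+/- arrays, 8.32 on both arrays of fasted wild-type liver, and 8.11 and 8.08 on the fed arrays. The part of these cell types in the differences of the enzymes was not tested. The hepatocyte list had no gene that passed in any comparison.

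The genes around these enzymes were taken from a list of 72 other genes of amino acid breakdown, of which 62 were measured. In fasted against fed wild-type liver 4 rose and 4 fell, where 1.87% of all genes rose and 3.15% fell. The median difference was -0.02, beside 0.02 over all genes. The 4 that fell include partners of Agxt, Prodh and Tdo2 in their own pathways. Hao1, which makes the glyoxylate that Agxt removes, read 11.42 and 10.98 on the arrays of fasted wild-type liver and 12.68 and 12.72 on the fed arrays. Hao1 fell by 1.50 (SE 0.18, adjusted p = 0.00646), and it passed the test without any single array (adjusted p at most 0.0461). Aldh4a1, which completes the conversion of proline to glutamate after Prodh, read 11.38 and 11.02 on the arrays of fasted wild-type liver and 12.10 and 11.97 on the fed arrays and fell by 0.83 (SE 0.16, adjusted p = 0.0316). Haao, a ring-opening dioxygenase downstream of Tdo2, read 12.68 and 12.48 on the arrays of fasted wild-type liver and 13.32 and 13.31 on the fed arrays and fell by 0.73 (SE 0.14, adjusted p = 0.0351). Pcca, a subunit of propionyl-CoA carboxylase, fell by 0.55 (adjusted p = 0.0383), though its dimmer probe set differed by 0.05 in the other direction.

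The 4 that rose act on other amino acids. Csad, which decarboxylates cysteine sulfinate on the way to taurine, read 11.05 and 11.42 on the arrays of fasted wild-type liver and 9.97 and 9.59 on the fed arrays, and rose by 1.46 (SE 0.20, adjusted p = 0.0112). Got1, the cytosolic aspartate aminotransferase, rose by 1.18 (SE 0.22, adjusted p = 0.0319). Mat1a, which makes S-adenosylmethionine in liver, rose by 0.74 (adjusted p = 0.0249), and Gpt2, the mitochondrial alanine aminotransferase, rose by 0.62 (adjusted p = 0.0339) with the same sign in 4 of 4 probe sets. These calls were sensitive to single arrays. Leaving out the second fed array or either fasted wild-type array left 0 genes that rose, leaving out the first fed array left 3, and leaving out any of these 4 arrays left 1 gene that fell, Hao1.

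**Figure D4:**
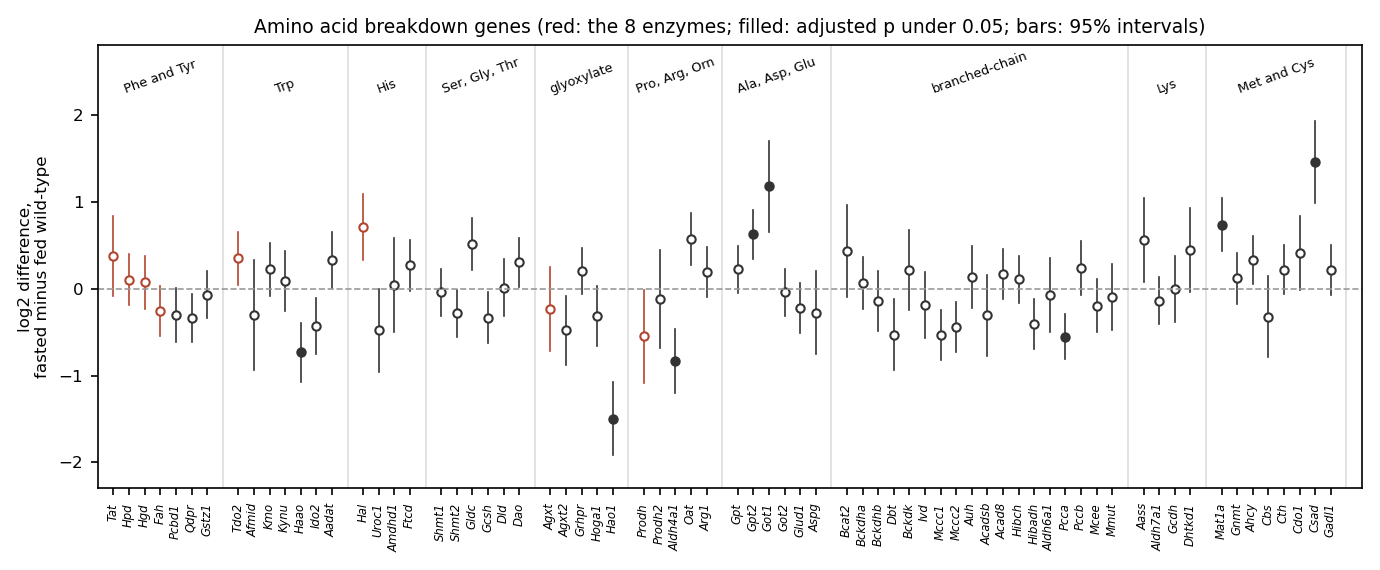
Log2 differences in fasted against fed wild-type liver for the enzymes and the 62 other measured breakdown genes, grouped by amino acid, with bars for 95% intervals, red for the 8 enzymes and filled points for an adjusted p under 0.05. Hao1, at -1.50, lies farthest below 0 and Csad, at 1.46, farthest above it, with the 8 enzymes between -0.55 and 0.71.

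By pathway, the branched-chain list had 1 gene that fell of 18 measured, Pcca. The phenylalanine and tyrosine list had none of 3 that passed, with Qdpr at -0.34 (adjusted p = 0.179), Pcbd1 at -0.31 (adjusted p = 0.276) and Gstz1 at -0.07 (adjusted p = 0.823). The lysine list had none of 4, with Aass, the entry enzyme, at 0.56 (adjusted p = 0.197). The serine, glycine and threonine list had none of 6, with Gldc, of the glycine cleavage system, at 0.52 (adjusted p = 0.0687). Among 12 amino acid transporters none passed, with Slc6a13 nearest at -0.61 (adjusted p = 0.0787). Between the fasted genotypes none of the 62 breakdown genes and none of the transporters passed, and the median of the 62 was 0.03. In fasted Cnot3+/- against fed wild-type liver 3.88% of all genes rose and 3.68% fell. Of the 62 breakdown genes 6 rose (Gldc, Oat, Gpt2, Got1, Mat1a and Csad) and 3 fell (Hao1, Aldh4a1 and Pcca). Without the second fed array 0 rose, without either Cnot3+/- array 1, without either fasted wild-type array 3 and without the first fed array 4. The number that fell was 1 without either fed array or the second Cnot3+/- array, and 2 without any of the other arrays. Of the transporters, Slc1a2, a glutamate carrier of pericentral hepatocytes, rose by 1.58 (adjusted p = 0.0118), Slc16a10 rose by 0.60 (adjusted p = 0.0419) and Slc6a13 fell by 0.69 (adjusted p = 0.0429). The Slc1a2 call was lost without the second fed array, where the difference was 1.47. Its 5 probe sets shared the sign but ran from 0.04 to 1.58, the dimmest with a mean level of 4.12. The mean over them differed by 0.70 and did not pass (limma adjusted p = 0.0673). The Slc16a10 call was lost without any array but the second Cnot3+/- array (adjusted p up to 0.166), and the Slc6a13 call without any of the 4 arrays compared (up to 0.18).

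Regulators and responders of the fasting signal were read beside the enzymes. Over all genes 5.02% passed in fasted against fed wild-type liver and 7.56% in Cnot3+/- against fed liver. Of 11 measured regulators in wild-type liver, Creb3l3, a membrane-bound transcription factor of the fasted liver, rose by 0.96 (adjusted p = 0.0114). Nr3c1, the glucocorticoid receptor, fell by 0.63 (adjusted p = 0.0391), with the same sign in 4 of 6 probe sets. Of 11 glucocorticoid and cAMP response genes, Fkbp5 rose by 0.97 (adjusted p = 0.021), while Igfbp1 at 2.94 (adjusted p = 0.189) and Pck1 at 1.22 (adjusted p = 0.326) did not pass, the genes in which the fed arrays stood apart. Of the genes that mark position in the liver lobule, Asl, a periportal urea-cycle gene, rose by 0.70 (adjusted p = 0.0239). The pericentral genes Cyp1a2 and Lect2 fell by 1.84 (adjusted p = 0.0106) and 1.69 (adjusted p = 0.00711). No other gene of either list passed, and the signs within each list were mixed. Of 7 periportal genes measured, 5 differences were positive, with Aldh1b1 at -1.02 and Cyp2f2 at -0.22 the other way. Of 9 pericentral genes 3 were positive, Slc1a2 at 0.65, Oat at 0.57 and Cyp2e1 at 0.11. None of these regulators, responders and lobule genes passed between the fasted genotypes. In fasted Cnot3+/- against fed wild-type liver 10 passed. Fkbp5 rose by 1.34, Creb3l3 by 0.94, Asl by 0.81, Oat by 0.68, Insr, the insulin receptor, by 0.61 and Slc1a2 by the 1.58 given above. Lect2 fell by 1.59, Cyp1a2 by 1.29, Aldh1b1 by 1.16 and Nr3c1 by 0.64. Of the genes of these lists, 6 were called in fasted against fed wild-type liver, against 0 without the first fasted wild-type array, 1 without the second and 2 without the second fed array.

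The enzymes also differed between arrays of the same group. On the fasted arrays 7 of the 8 genes, all but Tat, read higher on the array numbered 1 than on the array numbered 2, in Cnot3+/- and in wild-type liver alike. Over all genes 43.5% did so in Cnot3+/- and 45.6% in wild-type liver. Prodh had the widest gap in Cnot3+/-, 0.60, and Agxt in fasted wild-type, 0.61. The signed median over all genes was -0.04 and -0.02, which gives the offset between the arrays and not the size of a usual gap. On the fed arrays 5 of 8 enzymes read higher on the first, beside 48.9% of all genes, with Tat at 0.60 and Tdo2 at 0.24 the widest. For Agxt the gap of 0.61 in fasted wild-type liver exceeded its genotype difference of 0.50. For Prodh the gap of 0.60 in Cnot3+/- liver exceeded its genotype difference of 0.42. For Hgd the genotype difference of 0.22 exceeded its gap of 0.18 in each fasted group. Across all genes 177 were at least 2-fold apart between the Cnot3+/- arrays, 72 between the fasted wild-type arrays and 163 between the fed arrays, and no enzyme was among them.

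**Figure D5:**
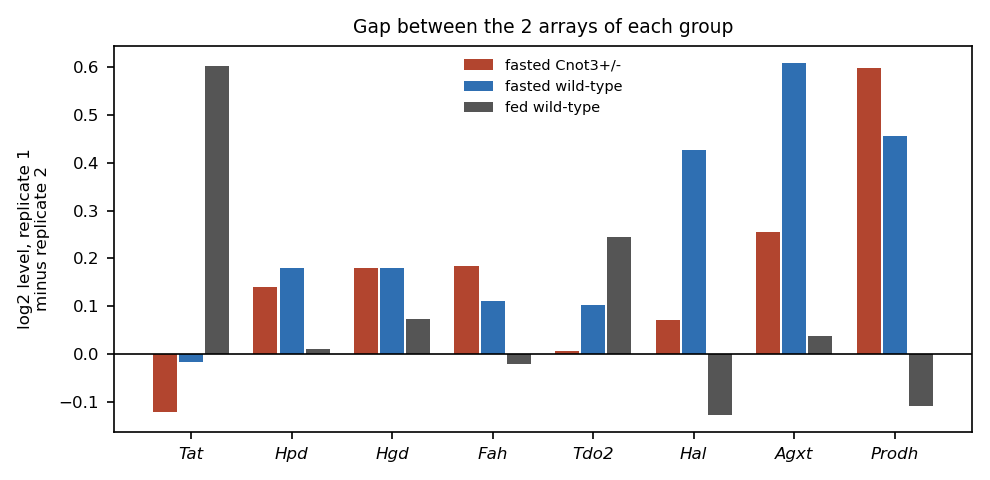
Log2 level on the array numbered 1 minus that numbered 2, for the 8 enzymes in fasted Cnot3+/-, fasted wild-type and fed wild-type liver. In both fasted groups 7 of 8 genes lie above 0, with Prodh at 0.60 in Cnot3+/- and Agxt at 0.61 in wild-type liver, and in fed liver Tat stands at 0.60.

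Set side by side as profiles over the 6 arrays, each centred on its own mean, Hgd and Hpd were the most alike of the 8 genes, with a root mean square difference of 0.0615 in log2 units. Hal and Prodh were the least alike, at 0.559. The profiles were not scaled, so genes that varied little lie close by this measure. Hpd spanned 0.27 and Hgd 0.42 over the arrays, against 0.99 for Hal and 0.94 for Prodh. No gene of the 8 spanned 1 log2 unit over the arrays, the span set for naming similar genes, and Hal came closest at 0.99. For Hal, chosen after its values were seen, the most similar of the 9096 genes brighter than the median gene was Asl, at 0.0864, followed by Sdr42e1 at 0.0926 and Smim4 at 0.0938. Asl read 14.54 and 14.47 on the Cnot3+/- arrays, 14.48 and 14.30 on those of fasted wild-type liver and 13.72 and 13.68 on the fed arrays. As Asl was picked for its likeness to Hal over these arrays, the shared gap between fasted and fed arrays follows from the choice.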

How the data were processed

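Total liver RNA was hybridised to 6 arrays, 2 for each of 3 groups. The authors deposited log2 expression values. The submitters' processing notes name RMA with no version, and the build and annotation used are not given in the sources used here. The values were used as deposited. Of 45101 probe sets, 64 are controls, 34945 name a single gene, 932 name several and 9160 name none. Each of 18193 genes took its brightest single-gene probe set, and 18145 of their names were found in RefSeq.

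Genes were tested with limma 3.58.1 (R 4.3.3) in 1 fit of 3 group means (residual df 3, prior df 4.24), with Benjamini-Hochberg adjustment within each comparison and an adjusted p under 0.05 called. SE is the moderated standard error and SD is over 2 arrays, so 2 arrays a group limit the precision. The labels do not say that arrays come from separate animals beyond calling them biological replicates. The p-values set a difference against the spread between arrays, moderated towards that of all genes. The labels state no pairing, and the numbers were not taken as pairs for that reason. Deviations of same-numbered arrays correlated at 0.454 between the fasted groups, so those arrays shared part of their deviations. The SE of the genotype differences, which is unpaired, includes that shared part. The correlation was 0.0447 between fasted and fed wild-type and -0.00929 between Cnot3+/- and fed. Counts with a replicate block are given below.

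Every enzyme is named with its probe sets. From other lists, genes called in a comparison are named, or else up to 3 with the smallest p. The enzymes and lists were chosen with earlier results of these data known. Alternatives covered normalisation, the choice of probe set, the filter on dim genes, the variance model, the replicate block and leaving out each array. Figures were drawn with matplotlib 3.10.9.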

Additional observations from a re-analysis of the deposited data

How the results depend on the processing

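Of 24 differences (8 enzymes, 3 comparisons), each under 12 other settings, 286 of 288 kept their direction and 283 their side of the threshold. Most of these settings change the test alone and leave the difference untouched, so most directions were fixed in advance. Only normalisation could move every difference, and the choice of probe set only those of Tdo2 and Hgd. The 2 that turned came from the mean over a gene's probe sets, Hgd in fasted against fed wild-type liver (-0.19) and Tdo2 between the fasted genotypes (0.044). In fasted against fed wild-type liver 1 enzyme, Hal, passed with quantile normalisation (adjusted p = 0.0474), with genes above the median level only (0.0482) and with a variance trend (0.0298). In fasted Cnot3+/- against fed liver 2 passed with the mean over probe sets (Hal, and Tdo2 at 0.64, adjusted p = 0.0498) and 0 with an unmoderated test, which called 3 genes of all. With a replicate block 0, 0 and 1 enzymes passed in fasted against fed wild-type, Cnot3+/- against fasted wild-type and Cnot3+/- against fed liver, the 1 being Hal (adjusted p = 0.0256; 0.0507 in wild-type), and over all genes 1206, 0 and 1708. Of the other breakdown genes, the count that rose in fasted wild-type liver, 4, became 2 without probe sets shared between transcripts. That setting removes Csad, whose only probe set is a shared one, and the brightest probe set of Gpt2. The count that rose became 2 in the fit over all probe sets and 0 unmoderated. The count that fell, 4, became 1 over all probe sets and 0 unmoderated. In Cnot3+/- against fed liver the 6 that rose became 3 with only the 4 arrays compared and 0 unmoderated, and the 3 that fell became 6 with a variance trend and 0 unmoderated. The regulators, responders and lobule genes called, 6 in fasted wild-type and 10 in Cnot3+/- against fed liver, became 0 unmoderated. Over all genes, 913 calls in fasted wild-type liver became 574 over all probe sets and 3 unmoderated, and 1375 in Cnot3+/- against fed liver became 857 with only the 4 arrays compared and 3 unmoderated.

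Leaving out each array in turn, 139 of 144 enzyme differences kept their direction. The 144 include arrays outside the comparison, whose omission cannot change the difference, so part of that count was fixed in advance. Those that turned ranged from -0.53 to 0.075 for Agxt and -0.019 to 0.16 for Hgd in fasted against fed wild-type liver, from -0.10 to 0.33 for Hal and -0.0028 to 0.18 for Hpd between the genotypes, and from -0.43 to 0.17 for Prodh in Cnot3+/- against fed liver. The enzymes called numbered 0 to 0, 0 to 0 and 0 to 1. The other breakdown genes that rose and fell numbered 0 to 4 and 1 to 4 in fasted wild-type and 0 to 4 and 1 to 2 in Cnot3+/- against fed liver, with 0 to 0 between the genotypes, and their medians ranged from -0.065 to 0.068, -0.10 to 0.13 and -0.03 to 0.11. Regulators, responders and lobule genes called numbered 0 to 7, 4 to 12 and 0 to 0 in the same order. The causes were not tested. With 2 arrays a group, precision is limited to the intervals in the text.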
